A study of Bos taurus with 6 samples.

Results

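The miR-181 family was measured in the small RNA of bovine serum extracellular vesicles (EVs), the membrane-enclosed particles that cells release into blood. The family was taken as the rows of the deposited count table named bta-miR-181a, bta-miR-181b, bta-miR-181c and bta-miR-181d. These are 4 of the 359 known Bos taurus miRNAs (names starting with bta-) and of the 706 miRNAs in the table, which also holds newly predicted ones. All 6 animals were female Holstein cows in mid lactation (101 ± 10 days in milk, 574 ± 36 kg body weight and 32 ± 2 kg of milk a day, as the labels give them). The 3 control cows were fed a total mixed ration (TMR). For the 3 tested cows, whole cotton seed and soybean hull took the place of part of the alfalfa hay and of some corn silage. Each diet was fed for 30 days. Each cow gave 1 small RNA library, so a comparison of 3 cows with 3 asks whether the diet went with a different level of each member.

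A mature miRNA is a short RNA that guides silencing proteins to messenger RNAs, and its bases 2 to 8, the seed, are the main part that pairs with them. Members of the miR-181 family share 1 seed. The family is best known from lymphocytes, where miR-181a tunes how strongly developing T cells respond through their antigen receptor, and from blood vessel lining, where miR-181b dampens inflammatory signalling.

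The sequences are shown because the members differ from each other by only a few bases, which bears on how reads can be assigned to them. They are printed 5′ to 3′ as deposited, with T for U, and the seed is in capitals. A newly predicted miRNA that holds the same letters 1 base further in is printed below them.

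bta-miR-181a: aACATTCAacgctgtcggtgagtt

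bta-miR-181b: aACATTCAttgctgtcggtgggtt

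bta-miR-181c: aACATTCAacctgtcggtgagttt

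bta-miR-181d: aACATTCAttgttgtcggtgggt

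novel193_mature: taACATTCAccactgtgctgag

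The 4 members were the only rows of the 706 with ACATTCA at bases 2 to 8. Searched anywhere on the listed strand, ACATTCA was present in 5 rows (0.708% of the table), the 4 members and novel193_mature. A second run, TGTCGGTG, was present in 4 rows (0.567%), which were again the 4 members. Counting positions from 1 at the 5′ end, bta-miR-181a and bta-miR-181b, both 24 nt long, differed by A9T, C10T and A21G. Over the 23 bases that both have, bta-miR-181b and bta-miR-181d differed by the single change C12T. The sequence of bta-miR-181c was 2 edits (bases changed, added or removed) from that of bta-miR-181a, with which it shared its first 10 bases. The most distant pair, bta-miR-181c and bta-miR-181d, lay 7 edits apart. Outside the family the nearest sequence, novel193_mature, was 7 edits from bta-miR-181a. The sources used here do not give the number of mismatches allowed in counting. Reads of bta-miR-181d and bta-miR-181c could therefore include some of the far more abundant bta-miR-181b and bta-miR-181a, and these 2 low counts are uncertain.

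In the RefSeq annotation of assembly ARS-UCD2.0, a newer assembly than the ARS-UCD1.2 of the submitters' processing notes, the 4 mature miRNAs matched 6 hairpin genes at 3 places. At 2 of these places a hairpin of bta-miR-181a lies within 10 kb of one of bta-miR-181b, MIR181A-1 beside MIR181B-1 and MIR181A-2 beside MIR181B-2. The second of these pairs lies within the span of NR6A1, which encodes an orphan nuclear receptor. At the third place MIR181C lies beside MIR181D within the span of NANOS3, which encodes an RNA-binding protein of germ cells. Because mature bta-miR-181a and bta-miR-181b each have 2 hairpins, their counts cannot be divided between the places.

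Counts per library ranged from 1277693 to 2176002 over all miRNAs and from 1226928 to 2088249 over known miRNAs. Levels are given below as counts-per-million values (CPM) of known miRNAs, for which a count is divided by the known miRNA counts of its library. A read covers a whole miRNA, so levels were not divided by length. In bulk serum, fewer vesicles that carry a miRNA and less of it per vesicle cannot be told apart. The libraries differed in miRNAs of blood cells. The summed level of the red blood cell markers bta-miR-451, bta-miR-144 and bta-miR-486 (3 of 3 present) ranged from 13468 to 28434 in the control group and from 8621 to 59608 in the tested group, with the highest value in tested cow 1. That of the white blood cell markers bta-miR-142-5p, bta-miR-150, bta-miR-155 and bta-miR-223 (4 of 5 present) ranged from 196.4 to 385.8 and from 123.5 to 439.3, and the liver miRNA bta-miR-122 from 182.4 to 461.9 and from 149.9 to 598.2.

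All 4 members had counts in every library, as did 173 of the known miRNAs. Their joint share of the known counts was 0.232% ± 0.0158 for the control cows and 0.248% ± 0.0288 for the tested ones (mean ± SD, n = 3 each). When known miRNAs were grouped by seed, miR-181 was at rank 25 of 283 seed groups by mean share, and at rank 14 of the 42 groups with at least 2 members. In CPM of known miRNAs the family summed to 2154, 2469 and 2324 among controls and to 2416, 2797 and 2232 among tested cows, so that the groups overlapped. It was a family of unequal members. Over the 6 cows, bta-miR-181a held 86.0% of the family's mean level, where the median for the leading member of those 42 groups was 80.0%.

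**Figure D1:**
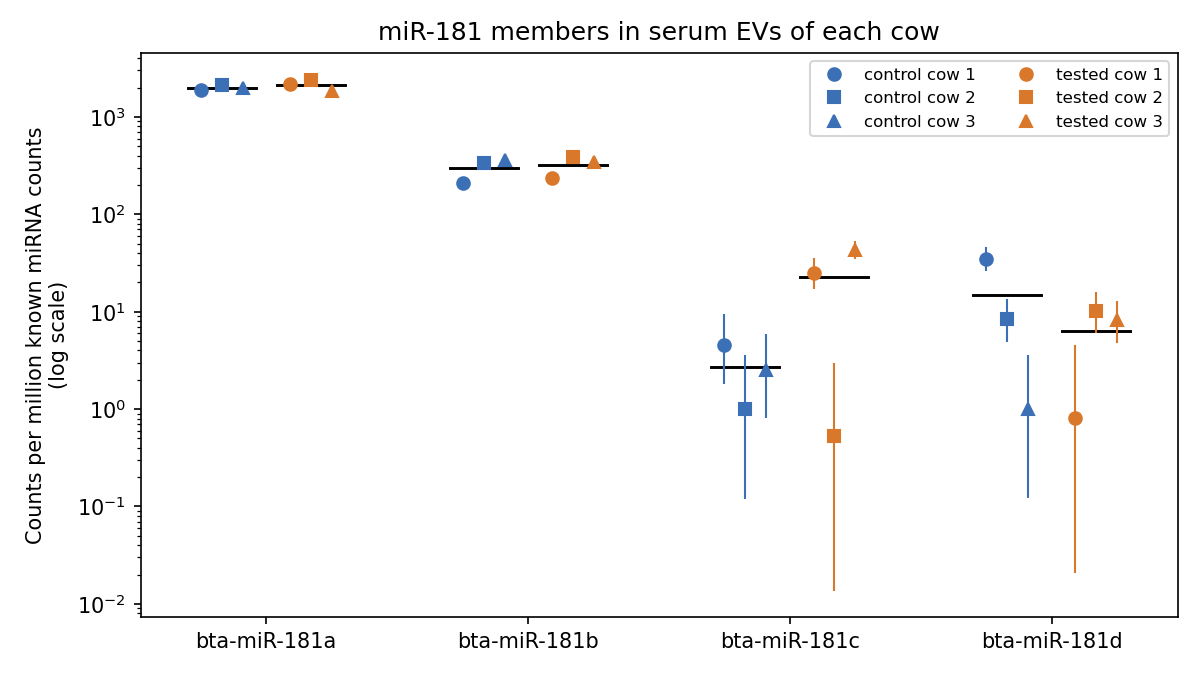
Level of each miR-181 member in every cow, in CPM of known miRNAs on a log scale. Points are cows, vertical lines are 95% exact counting intervals and horizontal bars are group means (n = 3). The points of bta-miR-181a and bta-miR-181b stay close together, those of bta-miR-181c and bta-miR-181d spread from under 1 to 43.1 and 35.1.

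The leading member, bta-miR-181a, had levels of 1905, 2124 and 1960 among controls, while cows on the tested diet had 2156, 2403 and 1834. Tested cow 2 was the highest and tested cow 3 the lowest of all, so that the groups overlapped. The group means of 1996 ± 114 and 2131 ± 285 (± SD, n = 3 each) gave a ratio of 1.07 (p = 0.6 by two-sided exact permutation, a test that cannot go below 0.1 with 3 cows against 3). In single cows it was between rank 37 and rank 39 of the known miRNAs. Its coefficient of variation over the 6 cows was 10.1%, against 1.65% from counting error alone. Of the 20 known miRNAs nearest to it in mean level, 1 varied less, and their median was 17.0%. Directly above and below it by mean level stood bta-miR-423-3p with 2082 and bta-miR-374a with 2034, whose ranges over the cows both covered its own mean.

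The total used for scaling moved this level. In the RPM values that the authors deposited, which are scaled to clean reads, bta-miR-181a had 205.2, 333.6 and 353.1 among controls and 183.3, 374.7 and 158.3 among tested cows. On that scale the log2 ratio of the means was -0.32 in place of 0.09, with groups that again overlapped.

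Next in level, bta-miR-181b had 208.8, 335.5 and 360.7 among controls and, among tested cows, 233.9, 383.6 and 346.2. Control cow 1 and tested cow 1 were the low ones, and the groups overlapped. Group means were 301.7 ± 81.4 and 321.3 ± 77.9 (± SD, n = 3 each), a ratio of 1.06 (p = 0.6 by exact permutation). It lay between rank 71 and rank 90 in single cows. Its coefficient of variation was 23.1%, against 4.24% from counting error, and 7 of the 20 known miRNAs nearest in level varied less. In the deposited RPM values the log2 ratio of its means was -0.35 in place of 0.09. Its neighbours by mean level were bta-miR-100 with 320.3 and bta-miR-122 with 307.4, and the ranges of all 3 overlapped.

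The level of bta-miR-181c rested on few counts. Controls had 7, 2 and 5 counts, which are levels of 4.55, 0.996 and 2.51. Tested cows had 31, 1 and 90 counts, which are levels of 25.3, 0.532 and 43.1. Tested cows 1 and 3 were above every control cow, while tested cow 2 had the lowest level of the 6. Group means were 2.69 ± 1.79 and 23.0 ± 21.4 (± SD, n = 3 each), a ratio of 8.55 (p = 0.4 by exact permutation). The ratio was 5.41 in the deposited RPM values, and without tested cow 3 its log2 value was 2.26 in place of 3.10. Summed over cows, 14 counts stood against 122, a ratio scaled to the known counts of 9.29 with a 95% exact binomial interval of 5.33 to 17.5. Such an interval, like those in the plot, holds counting error alone and treats PCR copies as separate molecules, and the tested cows spread more widely than it. By mean level bta-miR-181c was at rank 172 and in single cows between rank 143 and rank 233. The miRNAs next to it were bta-miR-363 with 13.4 and bta-miR-6517 with 12.8, both with ranges that overlapped its own.

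The other rare member, bta-miR-181d, had 54, 17 and 2 counts among controls, which are levels of 35.1, 8.46 and 1.00. Among tested cows it had 1, 19 and 17 counts, which are levels of 0.815, 10.1 and 8.14. Control cow 1 alone stood above the tested cows, and control cow 3 and tested cow 1 were near the limit of a single count. Group means were 14.9 ± 17.9 and 6.36 ± 4.90 (± SD, n = 3 each), a ratio of 0.428 (p = 0.6 by exact permutation). Without control cow 1 the order of the means turned, with a log2 ratio of 0.42 in place of -1.23. Its neighbours by mean level, at rank 180, were bta-miR-1306 with 10.7 and bta-miR-2288 with 10.3, and their ranges overlapped with its own. The coefficients of variation of bta-miR-181c and bta-miR-181d were 137% and 119%, against 20.9% and 23.0% from counting error. Among the 20 known miRNAs nearest in level, the medians were 117% and 122%.

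The order of the members was the same in all 6 cows down to the second place. In each cow bta-miR-181a was above bta-miR-181b, by 5.30-fold to 9.22-fold, and bta-miR-181b was above both others, without overlap of the ranges. The low pair had no fixed order. In 3 cows bta-miR-181c was the higher one, and in 3 cows bta-miR-181d was, so these neighbours did not differ beyond their spread. The abundant pair held between 97.7% and 99.8% of the family's counts in a cow.

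Ratios within a library do not depend on the total to which levels are scaled. The ratio of bta-miR-181b to bta-miR-181a was 0.110, 0.158 and 0.184 among controls and 0.109, 0.160 and 0.189 among tested cows, ranges that nearly coincide. As log2 ratios the group means were -2.76 ± 0.38 and -2.75 ± 0.41 (± SD, n = 3 each) and differed by 0.01 (p = 0.8 by exact permutation). The lowest ratios were those of control cow 1 and tested cow 1. Several blood and tissue markers were also highest in these libraries. The summed red blood cell markers were at 28434 and 59608, against 8621 to 16300 in the other 4. The summed white blood cell markers were at 385.8 and 439.3, against 123.5 to 238.9, through bta-miR-150 and bta-miR-142-5p. The other white blood cell markers were not highest there, since bta-miR-155 had its highest count in control cow 3 (235) and bta-miR-223 in tested cow 3 (95). The liver miRNA bta-miR-122 was at 461.9 and 598.2, against 149.9 to 251.9. The summed vessel and platelet markers bta-miR-126-3p and bta-miR-126-5p were instead highest in tested cow 3, at 166.2. They were at 78.7 in control cow 1, 135.3 in tested cow 1 and 10.6 to 38.3 in the remaining cows. The part of these markers in the ratio was not tested.

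The ratio of bta-miR-181d to bta-miR-181c was 7.71, 8.50 and 0.40 among controls and 0.0323, 19.0 and 0.189 among tested cows. Both extremes rested on a single count of 1 member, 1 against 31 in tested cow 1 and 19 against 1 in tested cow 2. Their 95% exact binomial intervals, from 0.000791 to 0.194 and from 3.02 to 789.5, did not overlap. For bta-miR-181b to bta-miR-181a, the lowest and the highest ratio had intervals from 0.0957 to 0.123 and from 0.174 to 0.204. As log2 ratios the group means were 1.57 ± 2.51 and -1.04 ± 4.75 (± SD, n = 3 each). Their difference, tested minus control, was -2.61, between the SDs of the control and the tested group (p = 0.6 by exact permutation). Each group held cows on both sides of an equal ratio, although the interval of control cow 3, from 0.0381 to 2.44, included it.

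**Figure D2:**
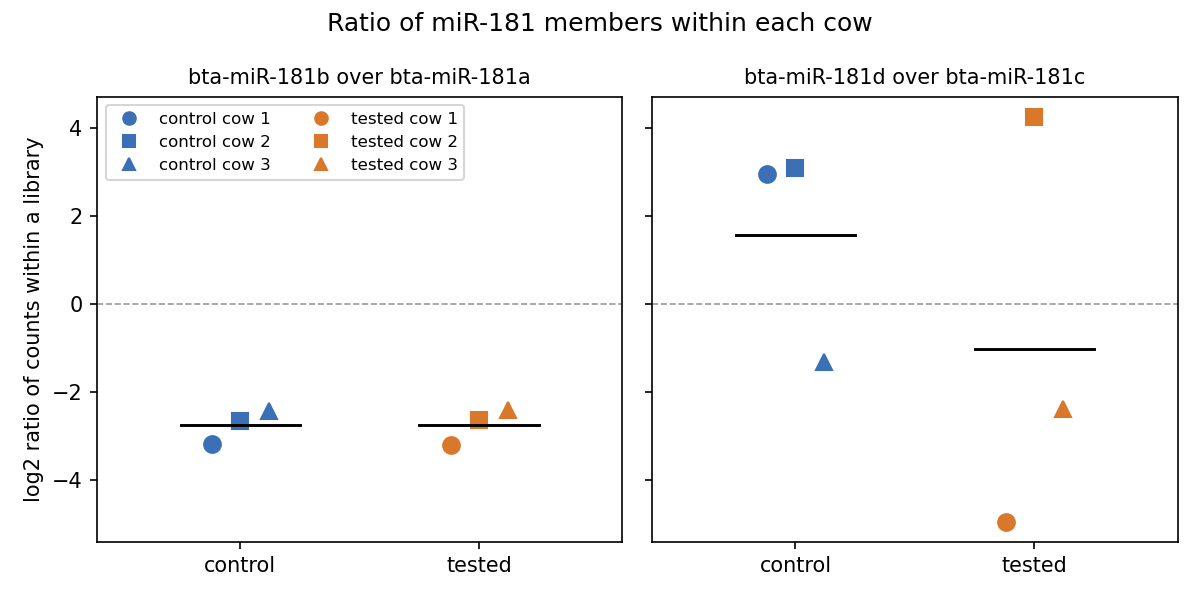
Log2 ratio of counts within each library, for bta-miR-181b over bta-miR-181a (left) and bta-miR-181d over bta-miR-181c (right), on 1 axis. Points are cows, bars are group means (n = 3) and the dashed line marks equal counts. The left ratio stays between -3.20 and -2.41, the right one runs from -4.95 to 4.25 and crosses the dashed line in both groups.

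The diets were then compared for all miRNAs at once by edgeR's quasi-likelihood F test. It scaled the libraries with TMM factors, which are computed without the miRNAs that differ most. All 4 members were among the 623 miRNAs tested, those with at least 10 counts over the 6 libraries. The threshold was a p under 0.05 before adjustment together with a log2 fold change beyond 1 in either direction. It was passed by 0 of the 4 members, where 3.21% of all tested miRNAs passed, 2.09% as higher and 1.12% as lower in the tested group. That split of 13 higher and 7 lower depended on single cows, with 21 and 2 without control cow 1 and 8 and 11 without control cow 3. The same count was 0 of 4 by adjusted p (Benjamini-Hochberg over the 623 miRNAs), which 0.161% of all tested miRNAs (1 of 623) passed, and 0 of 4 at an unadjusted p below 0.05 alone, which 4.65% passed. At the threshold above, DESeq2 and limma also passed 0 of the 4, where they passed 4.17% and 5.46% of all tested miRNAs. Over all tested miRNAs the count by adjusted p was 7 with DESeq2 and 0 with limma, and with edgeR it ranged from 0, without control cow 2 or 3, to 4, without control cow 1. With all 6 cows, edgeR gave 0 by adjusted p under 5 of the other settings, library sizes without factors, known miRNA totals without factors, filterByExpr, known miRNAs only and robust estimation. Groups that did not overlap in level were found for 0 of the 4 members and for 11.2% of all tested miRNAs. The median log2 fold change (tested over control) was 0.03 over the members and 0.07 over all miRNAs tested.

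The precision differed much between the abundant and the rare members. The estimate for bta-miR-181a, as log2 fold change, was 0.04 (SE 0.26, adjusted p by edgeR = 0.987), with a 95% interval from -0.51 to 0.60, or 0.702-fold to 1.51-fold. That for bta-miR-181b was 0.02 (SE 0.46, adjusted p by edgeR = 0.994), with an interval from -0.97 to 1.01, or 0.511-fold to 2.01-fold. The sign of both estimates was negative with RLE factors or DESeq2, at -0.02 for bta-miR-181a and -0.05 for bta-miR-181b. For bta-miR-181c it was 2.96 (SE 2.00, adjusted p by edgeR = 0.573), and the interval from -1.36 to 7.28 reached from a lower to a much higher level in the tested group. For bta-miR-181d it was -1.19 (SE 1.99, adjusted p by edgeR = 0.911), with an interval from -5.49 to 3.11. At this depth and with 3 cows a group, a change of bta-miR-181c or bta-miR-181d in either direction was not detectable short of a very large one.

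**Figure D3:**
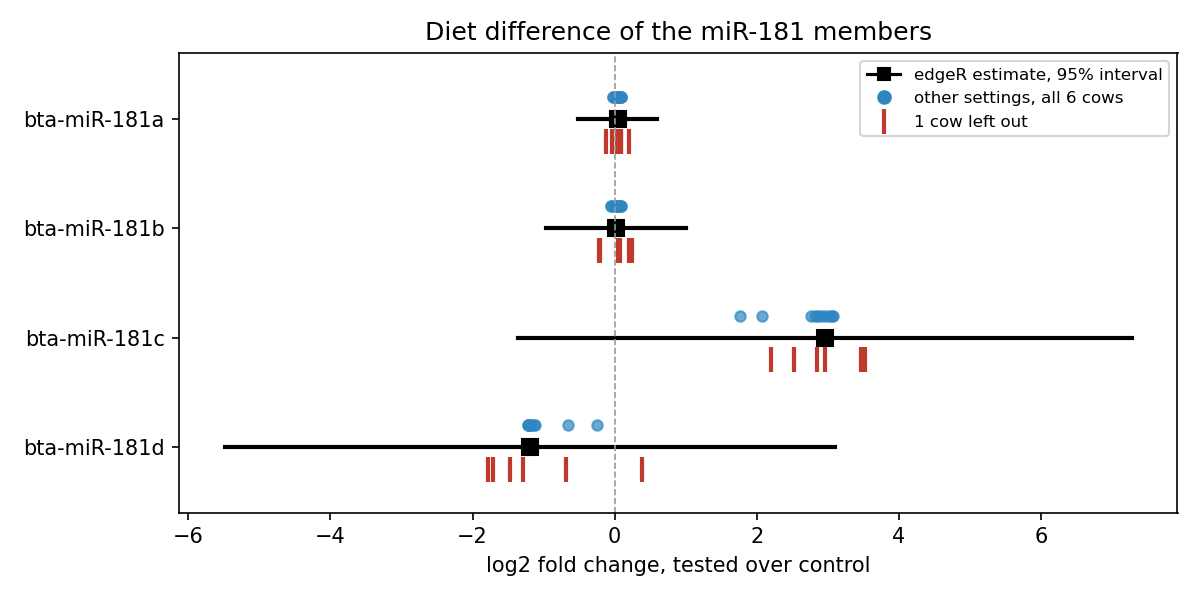
Log2 fold change of each miR-181 member, tested over control. Squares and lines are the edgeR estimates and 95% intervals, dots are the other settings with all 6 cows, and red ticks are the fits with 1 cow left out. All 4 intervals include 0, and they are narrow for bta-miR-181a (-0.51 to 0.60) and wide for bta-miR-181c (-1.36 to 7.28).

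**Figure D4:**
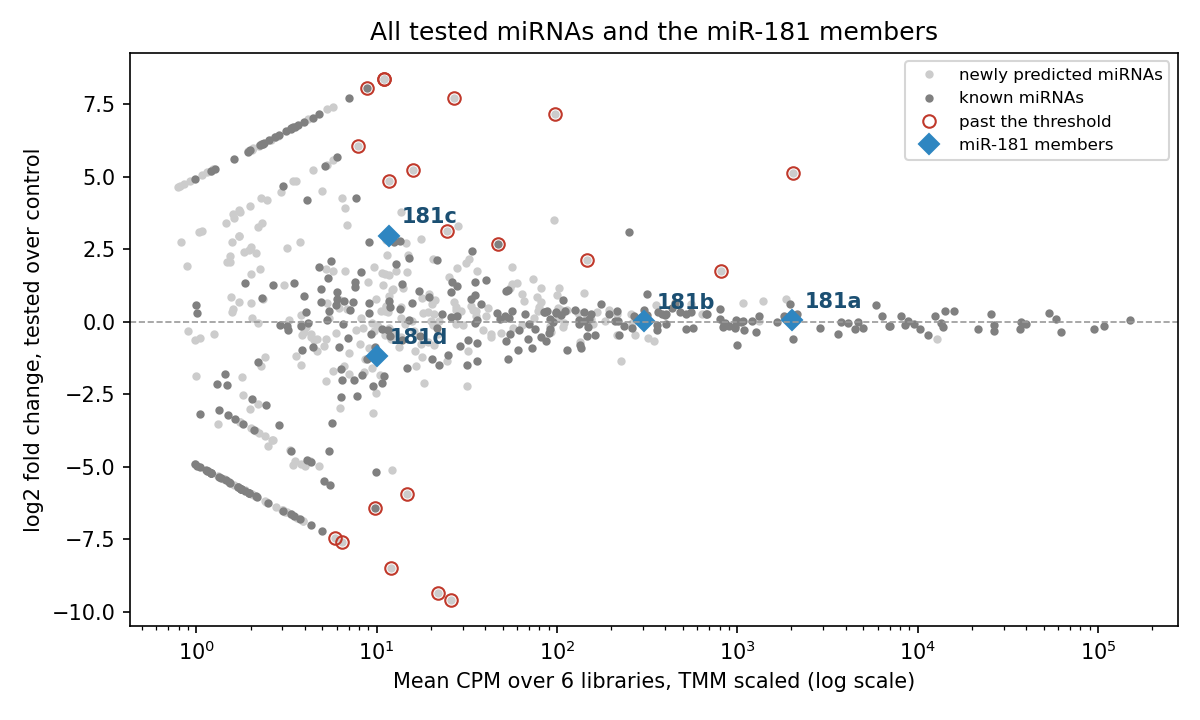
Log2 fold change (tested over control) against mean CPM scaled by TMM (log scale) for the 623 tested miRNAs. Diamonds are the miR-181 members, and open circles mark the 20 miRNAs past the threshold. The spread of the grey points narrows towards the right, where bta-miR-181b (0.02) and bta-miR-181a (0.04) lie near 0, and bta-miR-181c and bta-miR-181d lie within the wide part at low CPM.

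The known miRNAs closest in pattern to each member were those with the smallest root mean square difference in log2(CPM + 1), centred per miRNA over the 6 cows, among 311 known miRNAs. This distance is a description over 6 libraries. For bta-miR-181a they were bta-let-7c (0.09), bta-miR-30a-5p (0.10) and bta-miR-660 (0.12), where the median over the 311 was 1.12. For bta-miR-181b they were bta-miR-29a (0.21), bta-miR-26b (0.23) and bta-miR-345-5p (0.23), with a median of 1.18. The distance between bta-miR-181a and bta-miR-181b themselves was 0.32.

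For bta-miR-181c the closest was bta-miR-126-5p (0.65, with a median of 1.98), a miRNA of blood vessel lining and platelets. It had 28, 21 and 8 counts among controls and 88, 12 and 229 among tested cows, so that it too was high in tested cows 1 and 3 and low in tested cow 2. The other marker of vessels and platelets, bta-miR-126-3p (2 of 2 present), had 93, 56 and 13 counts among controls and 78, 51 and 118 among tested cows, and control cow 1 lay between tested cows 1 and 3. The wider list of 8 vessel and platelet miRNAs, which holds both, summed to 3754, 3354 and 1911 among controls and to 3586, 3780 and 4216 among tested cows. Most of that sum was bta-miR-23a, with a mean level of 2233, beside 40.4 for bta-miR-126-3p and 36.7 for bta-miR-126-5p. In that list bta-miR-221, chosen after its values were seen, was lowest in tested cow 3, with 8 counts. The part of these miRNAs in the level of bta-miR-181c was not tested. Next were bta-miR-874 (1.07) and the muscle miRNA bta-miR-1 (1.11). For bta-miR-181d the closest was bta-miR-6119-3p (0.48, with a median of 1.74), with 89, 23 and 3 counts among controls and 0, 25 and 20 among tested cows. Both were highest in control cow 1 and lowest in tested cow 1. It was followed by bta-miR-127 (0.60), from the imprinted DLK1-DIO3 region, and bta-miR-2285cc (0.86). Between bta-miR-181c and bta-miR-181d the distance was 2.60, above both medians.

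**Figure D5:**
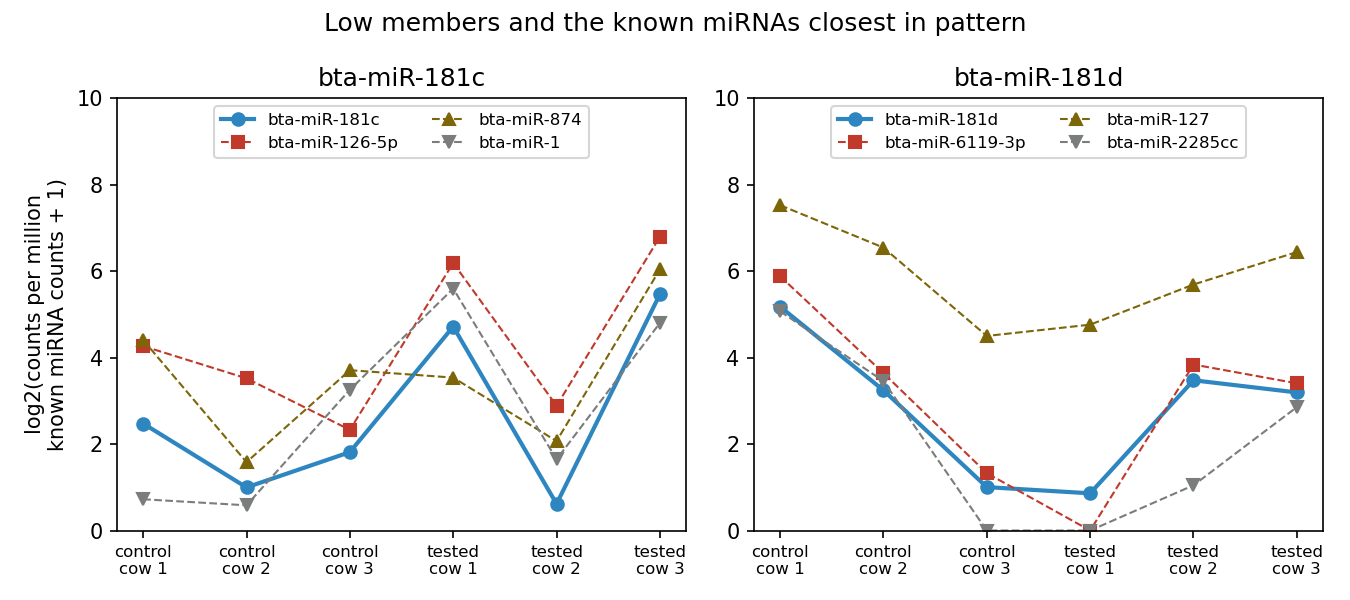
Level of bta-miR-181c (left) and bta-miR-181d (right) in every cow with the 3 known miRNAs closest in pattern to each, as log2 of (CPM of known miRNAs + 1). Lines only join the points of 1 miRNA. In the left panel bta-miR-181c and bta-miR-126-5p are both highest in tested cow 3, and in the right panel bta-miR-181d and bta-miR-6119-3p are both highest in control cow 1.

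Other miRNAs of immune cells, of blood vessels and platelets, and of red blood cells were read from lists. These lists were chosen with earlier results of these data known. Of 10 miRNAs of lymphocytes and innate immune cells, 9 were in the table, of which 0 passed the threshold in either direction, beside 3.21% of all tested miRNAs. Their median log2 fold change was -0.14, beside 0.07 over all tested. The most abundant of them, bta-miR-21-5p, a miRNA linked to inflammation and growth, had a mean level of 7259 and a log2 fold change of -0.14 (adjusted p by edgeR = 0.872). Of 8 miRNAs of blood vessels and platelets 0 passed, with a median of 0.51 against the same 0.07. Among these bta-miR-23a had the highest mean level, 2233, with a log2 fold change of 0.25 (adjusted p by edgeR = 0.825). Of the 3 red blood cell miRNAs 0 passed, with a median of 0.58, and bta-miR-486 led them with a mean level of 16625 and a log2 fold change of 0.35 (adjusted p by edgeR = 0.881). Their summed level was 59608 in tested cow 1 alone. In tested cows 2 and 3 it was 10840 and 8621, below every control cow (13468 to 28434).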

How the data were processed

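Per the labels, serum EVs were isolated with a membrane affinity kit and small RNA libraries were sequenced, 1 per cow. After trimming and size selection, the authors mapped reads to the bovine genome, discarded those of other RNA classes and named known miRNAs by miRBase. The submitters' processing notes name cutadapt 1.14 and Bowtie. The counting tool is not given in the sources used here. The authors deposited whole-number counts without normalization, and per-million values (RPM) under the name TPM that equal the deposited count divided by the clean reads of the library (11048676 to 24187264). Columns of the authors' own comparison (fold change, test, p-values, base mean) and their list of called miRNAs, with 6 columns of per-sample values, were not used.

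Counts summing to at least 10 were tested with edgeR 4.0.16 (TMM, glmQLFit, glmQLFTest) in R 4.3.3. DESeq2 1.42.0 and limma 3.58.1 (on log2(CPM + 1)) were alternatives, with other factors, filters and leave-one-out. The threshold was p under 0.05 before adjustment with a log2 fold change beyond 1 in either direction. Levels and ratios within a library (6 measures) were compared by two-sided exact permutation tests with SciPy 1.17.1. Libraries of 1 group differed far beyond sampling noise (chi-square per degree of freedom 96.1 to 278.4), so none was a copy of another in its group. Libraries of different groups were not compared in this way. The labels give each sample as a cow. Members and lists were chosen with earlier results of these data known. Named miRNAs were the members, sequences sharing the seed, the 3 closest in pattern, and neighbours in level and in the annotation. The markers of blood cells, vessels and liver and the most abundant of each list were also named. The rows novel193_mature and bta-miR-221 were chosen after their values were seen.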

Additional observations from a re-analysis of the deposited data

How the results depend on the processing

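In all 17 alternative settings of the test, 0 of the miR-181 members passed the threshold. Without any one cow, the log2 fold change ranged from -0.11 to 0.21 for bta-miR-181a, from -0.22 to 0.24 for bta-miR-181b, from 2.20 (without tested cow 3) to 3.53 for bta-miR-181c and from -1.79 to 0.38 for bta-miR-181d, positive only without control cow 1. With limma on log2(CPM + 1) it was 1.77 for bta-miR-181c and -0.66 for bta-miR-181d. The sign of the abundant pair turned with DESeq2 (-0.0187 for bta-miR-181a and -0.0523 for bta-miR-181b), with RLE factors (-0.0185 and -0.0523) and, for bta-miR-181b, with no filter (-0.0043). On the deposited RPM values, the log2 ratio of mean levels was -0.32 for bta-miR-181a and -0.35 for bta-miR-181b, against 0.09 for both in CPM of known miRNAs. Known counts made up 8.50% to 18.0% of the clean reads. Without any one cow this log2 ratio ranged from -0.00099 to 0.19 for bta-miR-181a, from -0.12 to 0.27 for bta-miR-181b, from 2.26 to 3.71 for bta-miR-181c and from -1.78 to 0.42 for bta-miR-181d, and the difference in the ratio of bta-miR-181b to bta-miR-181a from -0.20 to 0.24. That of bta-miR-181d to bta-miR-181c ranged from -5.25 to -0.65. The cause of these changes was not tested. The stricter filter filterByExpr removed bta-miR-181c and so gave no value for it.

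The sources used here do not say that replicate numbers pair the cows. Deviations of same-numbered cows correlated at -0.06, -0.05 and -0.02, and others at -0.06 to 0.11, which with 3 cows a group cannot decide it. The ratio of bta-miR-181b to bta-miR-181a was close in same-numbered cows, at 0.110 and 0.109, 0.158 and 0.160, and 0.184 and 0.189. That of bta-miR-181d to bta-miR-181c was not, at 7.71 and 0.0323 in the cows numbered 1. With the replicate number as a block, the log2 fold change was 2.08 for bta-miR-181c and -0.25 for bta-miR-181d, and the count of all miRNAs past the threshold was 12 in place of 20 (3 in place of 1 by adjusted p). This count was 34 with limma, 13 with filterByExpr, which tests fewer miRNAs, and 6 with known miRNAs only. Without any one cow it ranged from 17 to 23.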

Other observations

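The newly predicted novel193_mature, which holds the 7 seed letters of the miR-181 family at bases 3 to 9, had 0 counts in each control cow and 1, 3 and 12 counts in the tested cows. Tested cow 3 held 12 of its 16 counts. It met the minimum of 10 counts only through the tested group, and it was picked with its values in view, so no fold or test is given. With the seed taken at bases 2 to 8 it is no member of the family.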
